A study of Homo sapiens with 4 samples.

Results

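Among 2598309 genomic tiles of 1 kb with signal in K562 cells, 1563 stood out sharply from their surroundings in every library of both antibodies while carrying DPF2 and H3K14cr at similar levels. They are called balanced tiles here. The libraries were made by chromatin immunoprecipitation and sequencing (ChIP-seq), with 2 libraries for an antibody against DPF2 and 2 for an antibody against crotonylated lysine 14 of histone H3 (H3K14cr). All came from wild-type K562, an established human leukaemia line with erythroid features, grown in RPMI1640 medium with serum, fixed with formaldehyde and sonicated. The DPF2 antibody was from Abcam and the H3K14cr antibody from PTM, per the labels, which name no treatment. The DPF2 libraries held 7787444 and 13317496 reads, and the H3K14cr libraries 10880366 and 17369133. Whether the replicates were grown separately is not stated. Over all covered tiles the replicates differed by less than the sampling noise (chi-square per degree of freedom 0.981 for DPF2 and 0.990 for H3K14cr). Libraries of different antibodies gave only 1.08 to 1.13. Most of these tiles hold few reads, so the values do not show how the replicates were made. Each antibody was counted as 1 sample, and no test between antibodies was made. No input or other control library was analysed here.

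DPF2 is a subunit of BAF complexes, ATP-driven remodellers that slide and evict nucleosomes. Its paired PHD fingers recognise the tail of histone H3 and bind lysine 14 when it carries an acyl group, crotonyl among them. Crotonylation is a short-chain lysine acylation written by acetyltransferases such as p300 from crotonyl-CoA, and it is known from the promoters and enhancers of active genes. Reader and mark would therefore be looked for at the same places, and a tile where both are strong is a place where they can be described side by side. Their relative levels depend on how the libraries are scaled.

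The balanced tiles were chosen from the measured values of all 4 libraries. A tile's level was its signal in reads per 1000000 (CPM), and its fold was that level over the mean of the 20 tiles within 10 kb, or over the chromosome mean where that was higher. A fold of at least 4 was required in each library, with a mean of at least 2 CPM for each antibody and a DPF2 / H3K14cr ratio of mean levels above 0.667 and below 1.5. Tiles in the top 0.1% of all 4 libraries were left out. In all, 2354 tiles reached the fold in every library (0.0906% of covered tiles), 1902 of them also reached 2 CPM for both antibodies, and 111 of these were left out as very high. The 1791 that were left are called strong tiles. Of these, 1563 (87.3%) met the ratio rule, 35 had a ratio of at least 1.5 and 193 a ratio of at most 0.667. A balanced ratio was common at high levels in general: 82.4% of the 18660 tiles with at least 2 CPM for each antibody, very high ones left out, had one whatever their fold. Positions are on hg19, and tiles are named by position alone, because no annotation or sequence of that build was used here.

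**Figure D1:**
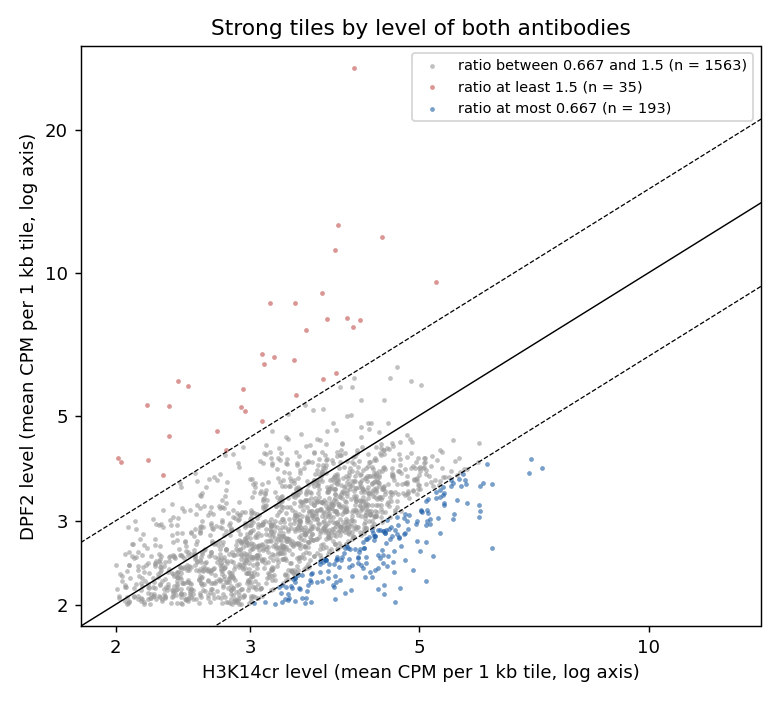
Mean DPF2 level against mean H3K14cr level (CPM per 1 kb tile, both axes logarithmic) at the 1791 strong tiles; the solid line marks equal levels and the dashed lines the ratios 0.667 and 1.5. The 1563 balanced tiles (grey) lie mostly below the solid line at this scaling, next to the 193 tiles with more H3K14cr (blue), while the 35 tiles with more DPF2 (red) are scattered above.

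The values that chose the balanced tiles are given as a description. In the DPF2 replicate 1 library their levels ran from 1.54 to 7.45 CPM with a median of 2.95, and in the replicate 2 library from 1.43 to 5.93 with a median of 2.85. H3K14cr ran from 1.56 to 6.43 CPM with a median of 3.40 in replicate 1, and from 1.498 to 6.33 with a median of 3.34 in replicate 2. The medians of covered tiles were 0.256 and 0.300 CPM for DPF2 and 0.276 and 0.288 for H3K14cr. The tiles were thus far above a typical tile in each library, and they were alike in height. DPF2 had median folds of 5.56 (replicate 1) and 5.41 (replicate 2), and H3K14cr of 5.82 and 5.78. Together they made up 0.0602% of covered tiles and held 0.478% and 0.459% of the DPF2 reads and 0.534% and 0.527% of the H3K14cr reads.

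Within the allowed band the ratios sat on the H3K14cr side. The median ratio was 0.865, with quartiles of 0.778 and 0.985, and H3K14cr was the higher antibody in 1211 tiles (77.5%) and DPF2 in 352. The same split held over all strong tiles, where H3K14cr was higher in 1404 of 1791 (78.4%). These directions depended on the scaling. With median-of-ratios factors, computed over the strong tiles themselves, the median ratio of the same 1563 tiles was 1.02, a shift of 0.23 on the log2 scale, and H3K14cr was higher in 711 (45.5%). Factors from these tiles bring their typical ratio near 1 by construction. The median near 1 and the near even split are therefore no measure of which antibody was higher. The levels of all 4 libraries overlapped between antibodies in 702 of the 1563 tiles. In 861 (55.1%) they did not overlap, against 60.6% of all strong tiles, and in 744 of those both DPF2 libraries were the lower ones; the ratio rule used these same levels.

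Reads limit how well a single tile can be called balanced. A balanced tile had between 40 and 127 DPF2 reads over both libraries (median 61) and between 56 and 171 H3K14cr reads (median 95). The 95% exact binomial interval of the pooled ratio spanned a factor of 1.95 from its lower to its upper bound at the median tile. It lay wholly inside the bounds of 0.667 and 1.5 in 276 tiles (17.7%) and held 1 in 1356 (86.8%). It lay wholly below 1 in 186 tiles and wholly above 1 in 21, against 21.0% and 3.13% of all strong tiles. The reads carry no molecular identifiers, so these intervals cover counting error alone.

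The thresholds cut through a continuum. The tile just inside the fold threshold, chr3:53304001-53305000, had a lowest fold of 4, and chr13:81229001-81230000, just outside, one of 3.9996. Of the balanced tiles, 603 had a lowest fold under 4.5, and 826 further tiles would have qualified with a fold between 3.5 and 4. At the level threshold, chr3:142297001-142298000 had 2.0015 CPM for its lower antibody inside, and chr7:96747001-96748000 had 1.997 CPM outside. On the H3K14cr side, chr1:93811001-93812000 had a ratio of 0.66705 inside, with 3.15 CPM for DPF2 and 4.73 for H3K14cr, and chr21:16437001-16438000 had 2.47 and 3.71 CPM outside. On the DPF2 side, chr6:53224001-53225000 had a ratio of 1.499 inside and chr2:211036001-211037000 one of 1.51 outside. At this scaling more balanced tiles lay near the lower ratio bound than near the upper one, with 278 under a ratio of 0.75 and 63 over 5/4. With median-of-ratios factors 53 of the 1563 were at or past the upper bound and 0 at or past the lower one.

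To see how far the balance recurs in libraries that did not choose it, the same rule was applied to the replicate 1 libraries alone and its tiles were measured in the replicate 2 libraries. Of 2211 tiles balanced in replicate 1, 1641 (74.2%, 95% Wilson interval 72.4 to 76.0%) had a ratio inside the bounds in replicate 2, 530 (24.0%) had a ratio of at most 0.667, and 40 (1.81%) one of at least 1.5. Their median ratio went from 0.903 where chosen to 0.815 where measured. A fold of at least 4 for both antibodies was met again by 1370 (62.0%), and the whole rule by 1009 (45.6%, 43.6 to 47.7%). Chosen in replicate 2, 2075 tiles were balanced, of which 1505 (72.5%) had a ratio inside the bounds in replicate 1 and 1009 (48.6%) met the whole rule. Balanced tiles made up 83.6% of the strong tiles chosen in replicate 1 and 83.7% of those chosen in replicate 2. The 74.2% and 72.5% therefore lie only a little above the shares over all strong tiles chosen in the same way.

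Tiles chosen as unbalanced in one replicate pair could be balanced in the other. Of 361 tiles with a ratio of at most 0.667 in replicate 1, 212 (58.7%) were inside the bounds in replicate 2, at a median ratio of 0.701. Of 73 tiles with a ratio of at least 1.5 in replicate 1, 30 (41.1%) were inside the bounds in replicate 2, and the median stayed high at 1.69. With replicate 2 as the chooser, 36.4% of 55 tiles with more DPF2 and 53.3% of 349 with more H3K14cr were inside the bounds in replicate 1. These shares were not tested against each other. Across the 1563 balanced tiles the Spearman correlation of the ratio between the replicate pairs, which share no library, was 0.152, and across the 1791 strong tiles it was 0.345. The rule narrows the range of the ratio at balanced tiles, and tiles are not independent replicates. The replicate ratios were both inside the bounds in 1208 balanced tiles (77.3%), against 67.4% of all strong tiles. The rule had bounded the ratio of the means of these same levels.

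**Figure D2:**
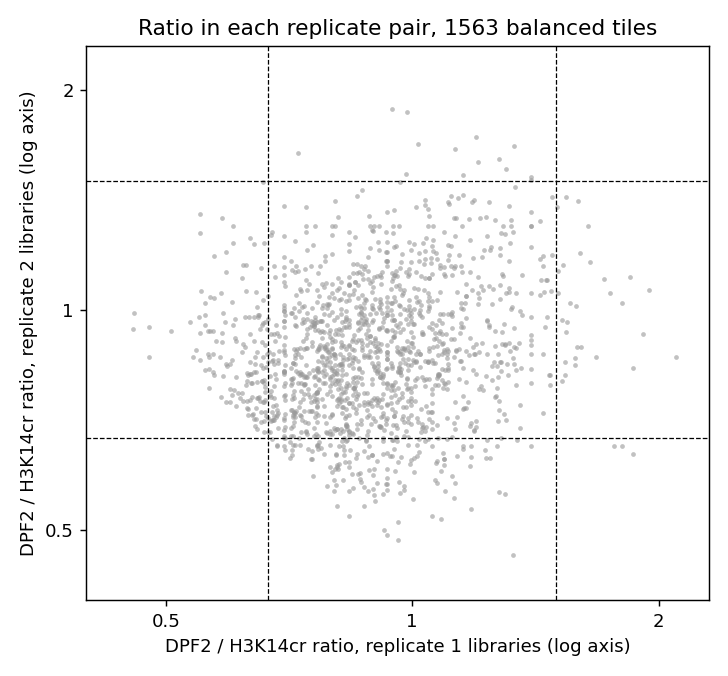
DPF2 / H3K14cr ratio from the replicate 1 libraries against that from the replicate 2 libraries at the 1563 balanced tiles (logarithmic axes); dashed lines mark 0.667 and 1.5. Of these tiles 1208 fall inside both pairs of lines, and the cloud shows little slope (Spearman 0.152).

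The rule set no position or shape inside the tile, but it asked every library for a 1 kb tile well above its surroundings, so a mound of about that size is in part a result of the choice, and the shapes are given as a description. The summit of an antibody was taken as the centre of its highest 300 bp within 1 kb of the tile centre. The DPF2 and H3K14cr summits of a balanced tile lay a median of 260 bp apart (quartiles 120 and 490 bp), and 618 of 1563 tiles (39.5%) had them within 200 bp. Between single libraries the median was 263 to 290 bp across antibodies, 220 bp between the DPF2 libraries and 200 bp between the H3K14cr libraries. The summits of reader and mark were thus somewhat farther apart than those of repeat libraries, at every pairing of single libraries. Read-weighted centres over the tile and its neighbours lay closer, at a median of 68.3 bp across antibodies with the replicates summed. Between single libraries the median was 63.3 bp for H3K14cr and 76.2 bp for DPF2. Summed replicates hold more reads than single libraries, so these distances are not a like comparison.

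Averaged around its own summits, each signal had about the same width. Replicate 1 set the summits and replicate 2 gave the profile, whose width midway between summit and flanks was 1153 bp for DPF2 and 1158 bp for H3K14cr. With the replicates exchanged the widths were 1122 and 1128 bp. Each signal was wider when centred on the summits of the other antibody: 1297 and 1311 bp for DPF2 around H3K14cr summits, and 1444 and 1399 bp for H3K14cr around DPF2 summits. Around the tile centres, DPF2 was 1259 and 1248 bp wide in replicates 1 and 2 and H3K14cr 1458 and 1470 bp. Those centres lay nearer the DPF2 summits, at a median of 240 bp, than the H3K14cr summits, at 270 bp. Of the DPF2 summits 13.1% were over 500 bp away, and of the H3K14cr summits 21.2%. The larger H3K14cr width there is therefore not a like comparison. At the 193 strong tiles with a ratio of at most 0.667 the order turned. Their centres lay nearer the H3K14cr summits (190 against 270 bp), and DPF2 was the wider signal (1536 and 1472 against 1188 and 1305 bp).

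**Figure D3:**
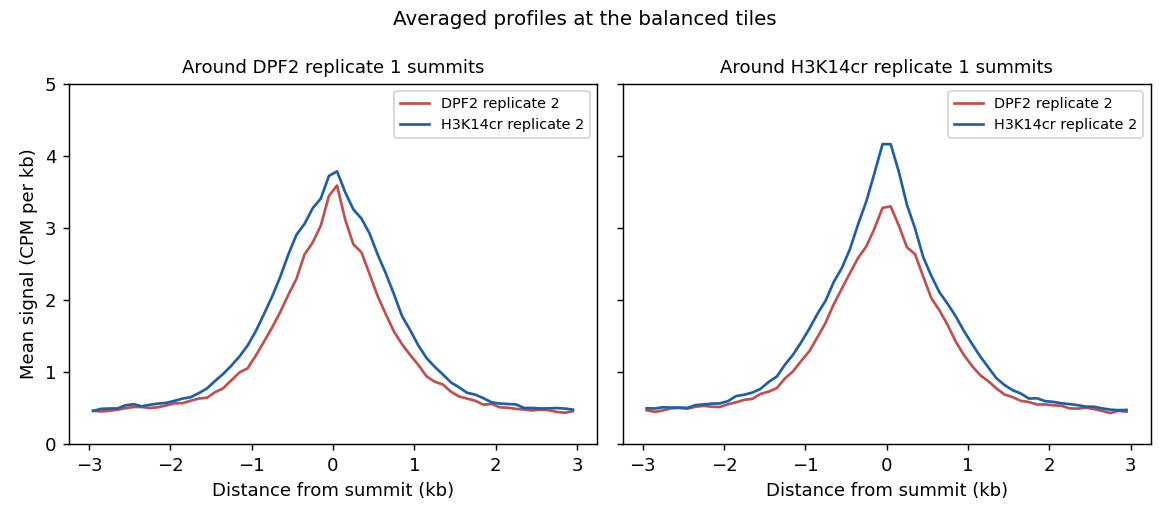
Mean signal (CPM per kb) of the replicate 2 libraries within 3 kb of replicate 1 summits at the 1563 balanced tiles, around DPF2 summits (left) and H3K14cr summits (right). Each antibody forms a single mound that is narrowest around its own summits (1153 bp for DPF2 on the left, 1158 bp for H3K14cr on the right) and wider around the other's (1444 bp for H3K14cr on the left, 1297 bp for DPF2 on the right), with H3K14cr the higher one at this scaling.

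DPF2 was narrower at the strong tiles with more DPF2. At the 35 strong tiles with a ratio of at least 1.5, the DPF2 profile was 407 and 344 bp wide in the same comparison, against 1153 and 1122 bp at balanced tiles, and H3K14cr was 681 and 593 bp wide. At the 193 strong tiles with a ratio of at most 0.667, DPF2 was 1371 and 1347 bp wide and H3K14cr 1274 and 1146 bp. The DPF2 and H3K14cr summits of the 35 tiles lay a median of 410 bp apart, and those of the 193 tiles 300 bp. Between single libraries at the 35 tiles the median was 400 to 460 bp across antibodies. It was 50 bp between the DPF2 libraries and 150 bp between the H3K14cr libraries. With 1 sample per antibody these differences between sets of tiles were not tested.

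The ratio changed with distance from the tile. The balanced tiles themselves averaged 2.99 CPM of DPF2 and 3.39 CPM of H3K14cr (ratio 0.882). In the adjoining tiles, 1 kb away, they were 1.24 and 1.56 CPM, a ratio of 0.797 (0.805 in replicate 1 libraries and 0.790 in replicate 2 libraries). At 2 kb the ratio was 0.904, at 3 kb 0.955 and at 10 kb 0.998, with 0.410 CPM for DPF2 and 0.411 for H3K14cr there. The ratio was thus lowest in the adjoining tiles, and at this scaling both signals were at the same level by 10 kb. The rule bounded the ratio of the tile itself and not that of its neighbours, so the step between them cannot be told apart from the choice. At the strong tiles with a ratio of at most 0.667 it went from 0.600 in the tile to 0.753 beside it. At those with a ratio of at least 1.5 it went from 2.24 to 1.41. The neighbouring levels entered the fold but not the ratio. At 11 to 50 kb the levels were 0.460 and 0.473 CPM, above the mean of 0.384 and 0.385 over all covered tiles.

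The shoulders of both antibodies leaned the same way. In 1339 of 1560 balanced tiles (85.8%, 84.0 to 87.5%) the adjoining 1 kb with more DPF2 was also the one with more H3K14cr. Between single libraries the share was 79.5 to 84.4% across antibodies, against 80.9% between the DPF2 libraries and 86.1% between the H3K14cr libraries, so the antibodies shared the side of the shoulder about as often as repeat libraries did. Between the left and right 500 bp of the tile itself the antibodies shared the higher side in 62.6% of tiles, and single libraries in 58.9 to 62.2%, against 66.8% within DPF2 and 72.1% within H3K14cr. In 321 balanced tiles (20.5%) an adjoining tile also reached 2 CPM for both antibodies without being balanced and strong itself.

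At the narrow end of the range of shapes, a small set of the balanced tiles formed a spike of about 0.2 kb in both antibodies. Shape was expressed as the share of the reads within 2 kb that lay within 300 bp of the point between the summits. The medians were 33.9% for DPF2 and 32.9% for H3K14cr, but 22 tiles (1.41%) had at least 60% for both antibodies, a bound set after seeing the values. Around their own summits these 22 narrow tiles were 230 and 245 bp wide for DPF2 and 207 and 254 bp for H3K14cr. Their summits lay a median of 30 bp apart across antibodies with the replicates summed. Between single libraries the median was 30 bp for DPF2 and 40 bp for H3K14cr, which is not a like comparison. DPF2 was the higher antibody in 19 of the 22, at a median ratio of 1.27 (1.26 in replicate 1 and 1.21 in replicate 2), against a median of 0.863 in the other 1541. With median-of-ratios factors DPF2 was higher in 21 of the 22, at a median ratio of 1.49, and 10 of the 22 were at or past the bound of 1.5. Their adjoining tiles held a median of 0.248 CPM, against 1.15 CPM in the 839 tiles with shares from 30 to 45% and 1.70 CPM in the 649 below 30%. The 53 tiles with shares from 45 to 60% lay between, with 0.654 CPM in the adjoining tiles. Their median ratio was 0.940, DPF2 was higher in 37.7% of them, and their summits lay a median of 150 bp apart. The bound thus cut a gradient. A high share by itself favours narrow profiles, close summits and low adjoining tiles. These traits come from the reads that sorted the tiles and are given as a description.

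The narrow tiles also lay in particular places. Some were within 100 kb of a stretch of at least 50 kb without a read in any library. This held for 0.871% of all covered tiles and 24 of all 1563 balanced tiles (1.54%). It held for 4 of the 53 tiles with shares from 45 to 60% (7.55%) and 10 of the 22 narrow tiles (45.5%). Of the 10, 4 lay within 50 kb on chromosome 2: chr2:92269001-92270000, chr2:92281001-92282000, chr2:92305001-92306000 and chr2:92317001-92318000. The last 3 of these lay 44, 20 and 8 kb from such a stretch and the first 56 kb. What such stretches are was not examined, since no annotation of the build was used, and the part of position in the shape was not tested. No input library or list of problem regions was used here, so it was not measured whether the narrow tiles, which include most of the highest folds, would also stand out in chromatin without an antibody.

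**Figure D4:**
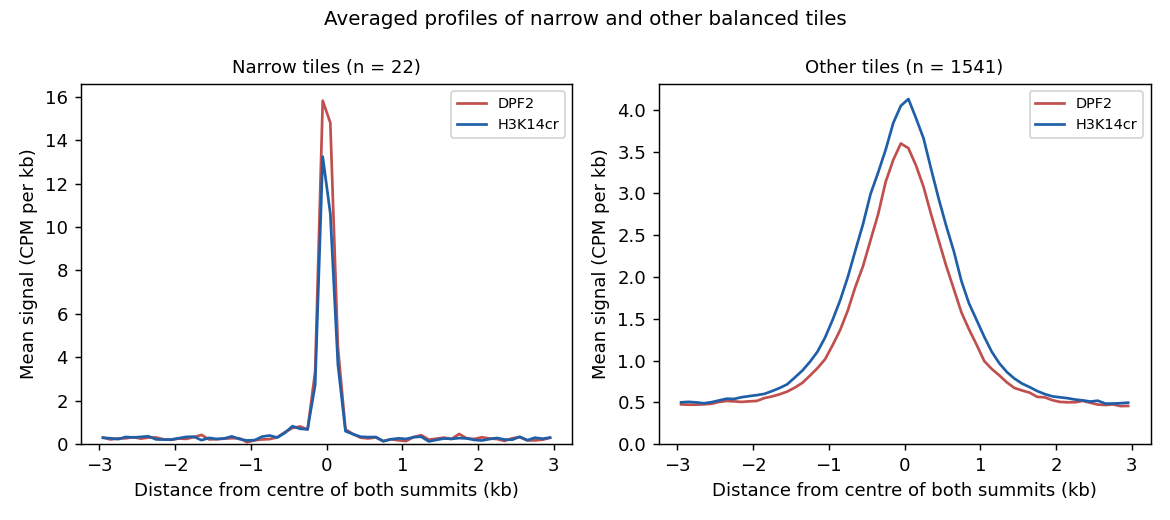
Mean DPF2 and H3K14cr signal (CPM per kb, different vertical scales) around the point between both summits, at the 22 narrow balanced tiles (left) and the other 1541 (right). The narrow tiles form a spike with DPF2 above H3K14cr, and the others a broad mound with H3K14cr above DPF2 at this scaling (median ratio 0.863, and 1.01 with median-of-ratios factors); the tiles were sorted by shape in these same reads.

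Of the 10 balanced tiles with the highest fold in their lowest library, 7 were narrow. Their balance depended on the scaling: with median-of-ratios factors 5 of the 10 had a ratio of at least 1.5, against 53 of all 1563 (3.39%). Those 5 were chrX:136520001-136521000 (1.56), chrX:125606001-125607000 (1.75), chr6:133471001-133472000 (1.58), chr4:80273001-80274000 (1.51) and chrX:58561001-58562000 (1.62). The highest, chrX:108297001-108298000, had 4.88 and 5.11 CPM in the DPF2 libraries and 4.41 and 3.63 CPM in the H3K14cr libraries, at folds of 23, 23.9, 22.7 and 18.5. Both DPF2 libraries were above both H3K14cr libraries, yet the interval of the pooled ratio held 1 (1.28, 0.970 to 1.68, from 106 and 111 reads). Of the reads within 2 kb, 98.7% of DPF2 and 98.6% of H3K14cr fell within 300 bp of the summits, and both adjoining tiles were at 0 in all 4 libraries.

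The next tile, chrX:136520001-136521000, had 4.495 and 4.43 CPM for DPF2 and 3.40 and 3.34 CPM for H3K14cr. Its libraries did not overlap between antibodies, its ratio was 1.32 in both replicate pairs, and its DPF2 and H3K14cr summits fell on the same position. At chrX:125606001-125607000 the DPF2 libraries had 5.14 and 5.41 CPM and the H3K14cr libraries 3.86 and 3.22 CPM, a ratio of 1.49 just inside the bound. Its pooled ratio was 1.53 (1.16 to 2.03), and one adjoining tile held 1.37 CPM of DPF2 but 0.202 CPM of H3K14cr.

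The fourth, chr4:190200001-190201000, had 3.85 and 3.45 CPM for DPF2 and 4.14 and 3.51 CPM for H3K14cr, and the antibodies overlapped (pooled ratio 0.960, 0.705 to 1.30). At chr6:133471001-133472000 the DPF2 libraries, at 7.45 and 5.18 CPM, were apart from each other and both above the H3K14cr libraries at 4.87 and 4.49 CPM. This was also the balanced tile with the highest mean over both antibodies, and its ratio was 1.53 in replicate 1 and 1.15 in replicate 2. At chrX:58561001-58562000, with 3.21 and 3.30 CPM for DPF2 and 2.67 and 2.07 CPM for H3K14cr, an empty stretch began 4 kb away. The remaining narrow tile of the 10 was chr5:71146001-71147000, with 4.88 and 4.58 CPM for DPF2 and 4.60 and 3.80 CPM for H3K14cr, where the libraries overlapped.

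The 3 broader tiles among the 10 had shares of 40.7 to 58.3% near their summits. chr7:103848001-103849000 had 3.60 and 3.83 CPM for DPF2 and 4.41 and 4.84 CPM for H3K14cr, a ratio of 0.803, and its adjoining tiles were raised to between 0.691 and 0.991 CPM in both antibodies. At chr3:39093001-39094000 DPF2 had 3.08 CPM in both libraries and H3K14cr 3.77 and 3.46 CPM. In both tiles the H3K14cr libraries were above the DPF2 libraries. chr4:80273001-80274000 had 3.34 and 2.78 CPM for DPF2 and 2.57 and 2.19 CPM for H3K14cr, and its adjoining tile held 2.44 CPM of DPF2 and 1.36 CPM of H3K14cr.

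The ratio was higher in the group with the highest folds. It had a median of 0.862 in the 997 balanced tiles with a lowest fold from 4 to 5, 0.879 in the 357 from 5 to 6 and 0.854 in the 178 from 6 to 8, and of 1.05 in the 31 at 8 or more. DPF2 was higher in 20.9%, 23.8%, 24.2% and 51.6% of the tiles of these groups. The last group holds 9 narrow tiles, of which 8 had more DPF2. Without them, an alternative chosen after seeing the data, 8 of the other 22 (36.4%) had more DPF2, at a median ratio of 0.957. The fold and the ratio come from the same reads.

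By level rather than fold, the leading balanced tiles were of mixed form. After chr6:133471001-133472000 came chr9:34999001-35000000, a narrow tile with 6.81 and 4.81 CPM for DPF2 and 5.79 and 4.26 CPM for H3K14cr, where replicate 1 was the higher library of both antibodies and the antibodies overlapped. chr1:150336001-150337000 was broad, with 6.93 and 4.88 CPM for DPF2 and 4.51 and 5.24 CPM for H3K14cr, summits 510 bp apart, and ratios of 1.54 in replicate 1 and 0.931 in replicate 2. Here the replicate pairs differed in which antibody was higher. At chr1:149223001-149224000, with 6.68 and 5.33 CPM for DPF2 and 5.06 and 4.09 CPM for H3K14cr, both DPF2 libraries were higher. chr21:44299001-44300000 stood on the other side, with 3.85 and 4.88 CPM for DPF2 against 5.88 and 6.10 CPM for H3K14cr, and its pooled ratio of 0.748 had an interval below 1 (0.576 to 0.967).

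Among the 100 balanced tiles with the highest level, the ratios nearest to 1 were found at 5 tiles. The closest, chr19:680001-681000, had 4.24 and 4.36 CPM for DPF2 and 4.23 and 4.55 CPM for H3K14cr, and its replicate ratios were 1.00 and 0.958. Even there, 91 and 125 reads allowed a ratio from 0.735 to 1.29. The others were chr16:14580001-14581000 (0.976), chr1:112298001-112299000 (1.04), chr1:213224001-213225000 (0.958) and chr6:146056001-146057000 (0.948), and at each of the 5 the libraries overlapped between antibodies.

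Balanced tiles were scattered and mostly single. The 1563 tiles formed 1514 runs, of which 1465 were single tiles and 49 were pairs. The nearest other balanced tile was a median of 252.5 kb away, and 100 tiles had another within 10 kb. Their density was 0.602 per covered Mb over the genome and differed between chromosomes. It was highest on chromosomes 15 and 6, at 0.919 and 0.912 per Mb from 68 and 144 tiles, leaving aside chromosome Y with 1 tile on 0.793 covered Mb. Among the other chromosomes it was lowest on 22, with none, and on X, at 0.168 from 21 tiles.

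Chromosome 22 had no balanced tile although 1822 of its tiles had at least 2 CPM for both antibodies, were not very high and had a ratio inside the bounds. Chromosome 19 had 1388 such tiles and 19 balanced tiles (1.37%), whereas on chromosome X 21 of 59 (35.6%) and on chromosome 4 53 of 135 (39.3%) were balanced, against 10.2% over the genome. The mean levels of covered tiles were 0.687 and 0.742 CPM for DPF2 and H3K14cr on chromosome 22, 0.657 and 0.694 on chromosome 19, 0.213 and 0.195 on chromosome X and 0.217 and 0.204 on chromosome 4. The fold divides by at least the chromosome mean, so a tile needed a higher level on chromosomes 22 and 19 than on X and 4 to be chosen. This floor was only part of the rule's effect. With the chromosome mean alone as background, 610 of the 1822 tiles on chromosome 22 and 395 of the 1388 on chromosome 19 met the rule. The mean of the tiles within 10 kb then left out all 610 on chromosome 22, and all but 19 of the 395 on chromosome 19. The densities with the chromosome mean alone were 18.7 per Mb on chromosome 22, 7.38 on 19 and 0.472 on X, against 4.30 over the genome. Copy number and density of sites cannot be told apart in these levels. The median ratio of balanced tiles ran from 0.829 on chromosome 13 to 0.912 on chromosome 19 among chromosomes with more than 1 tile.

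**Figure D5:**
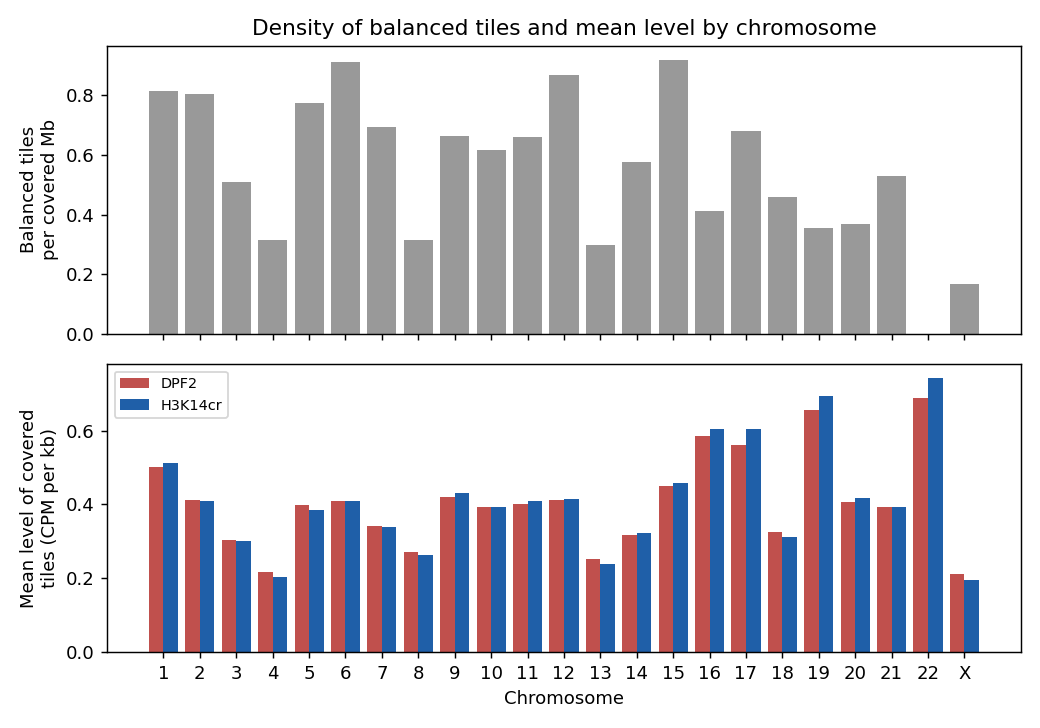
Balanced tiles per covered Mb (upper bars) and mean level of covered tiles (CPM per kb, lower bars) for each chromosome except Y. Chromosomes 19 and 22 have the highest mean levels and few or no balanced tiles (0.355 and 0 per Mb), and chromosome X has a low mean level and 0.168 per Mb.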

How the data were processed

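The authors deposited a signal file of 100 bp bins per library, whose column 4 is scaled so that each library sums to 10000000 and is given to 2 decimals. Bowtie2 and the builds mm9 and hg19 stand in the submitters' processing notes, with no version. How reads were filtered, de-duplicated and binned is not stated there. Dividing each deposited signal value by what 1 read was worth gave whole reads, to within 0.005 on the listed value, for all but 1 and 3 values (DPF2) and 4 and 0 values (H3K14cr) (at least 99.9999% whole). No count test was run on them, because the rule had already used the contrast between antibodies.

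Bins were put into the 1 kb tile of their midpoint on 24 chromosomes, CPM was the tile's signal over 10, empty tiles counted as 0 in the background, and the chromosome mean was taken over tiles with a read in any library. Groups and replicate numbers came from the titles. Profiles were built at 10 bp with each bin spread evenly. Intervals are exact binomial or Wilson at 95% confidence. Tiles were named by fold, level, ratio nearest 1, distance from a threshold, touching runs and difference in central share. The members and lists were chosen with earlier results of these data known. The selection and width code was tested on simulated data. The work used scipy 1.17.1, pandas 2.3.3, numpy 2.4.6 and matplotlib 3.10.9 in Python 3.11.15. Alternatives covered grid, tile size, thresholds, background, scaling and each replicate left out.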

Additional observations from a re-analysis of the deposited data

How the results depend on the processing

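The number of balanced tiles depended on the rule. Against 1563, tiles of 500 bp gave 2452 and of 2 kb 558, a fold of at least 3 gave 3620 and of at least 5 566, a minimum of 3 CPM gave 643, a ratio between 4/5 and 5/4 gave 1007, the chromosome mean alone as background gave 11164, and leaving the 2 tiles on each side out of the background gave 2740. Without a replicate it was 2075 to 2211. Moving the grid by 500 bp gave 1515 tiles, but 758 of the 1563 (48.5%) overlapped one of them, so single tiles depend on where the grid falls. The share of strong tiles with a balanced ratio, 87.3%, was 83.9% with 500 bp tiles, 89.4% with 2 kb tiles, 83.7% and 89.0% at folds of 3 and 5, 85.1% and 90.3% at 1 and 3 CPM, 81.9% with the chromosome background, 84.3% with the 2 nearest tiles left out, 92.8% with median-of-ratios factors and 83.6 to 83.7% without a replicate. The median ratio was 0.976 in tiles chosen with median-of-ratios factors and 0.881 to 0.903 without a replicate. Factors computed over the strong tiles bring their typical ratio near 1 by construction. The 92.8% and the 0.976 are thus in part a result of that scaling.

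The DPF2 width of 1153 bp was 1122 bp with replicates exchanged, 1182 bp with flanks at 4 to 5 kb, 1248 bp around tile centres and 1229 bp without the 22 narrow tiles, an alternative added after seeing the data. The H3K14cr width of 1158 bp was 1128, 1194, 1470 and 1222 bp. The summit distance of 260 bp was 68.3 bp for read-weighted centres and 270 to 290 bp without a replicate. The share that met the whole rule in the other replicate was 48.6% when replicate 2 chose. Of the 10 tiles with the highest fold, 5 left the ratio bounds with median-of-ratios factors, 2 without replicate 1 and 1 without replicate 2, all to at least 1.5. These ratios lay inside the tiles' wide counting intervals. Those intervals come from the same reads and do not cover scaling, so they cannot decide whether the tiles were balanced. Of all 1563 balanced tiles, 53, 173 and 185 left the ratio bounds in these settings. For all of these, the cause was not tested. No paired analysis was possible because no result comes from a test: the rule used the levels of all 4 libraries.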

Other observations

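The 3 pairs of touching balanced tiles with the highest mean level differed in kind. chr1:142537001-142538000 and chr1:142538001-142539000 both had more DPF2, at ratios of 1.45 and 1.40, and lay 3 and 4 kb from an empty stretch. At chr5:33440001-33441000 and chr5:33441001-33442000 the ratio changed sides between touching tiles. The first had 5.27 and 5.03 CPM for DPF2 against 3.68 and 3.80 CPM for H3K14cr, a ratio of 1.38, and the second 3.08 and 4.13 CPM against 4.96 and 4.61 CPM, a ratio of 0.754. In each of these tiles the libraries did not overlap between antibodies, and the summits found around the first lay 780 bp apart. At chr17:48943001-48944000 and chr17:48944001-48945000 H3K14cr was higher in both tiles, at ratios of 0.744 and 0.799.

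In some balanced tiles the totals were similar while the shapes were not. At chr11:77705001-77706000, 53.9% of the DPF2 reads within 2 kb but 26.1% of the H3K14cr reads lay within 300 bp of the point between the summits, and at chr1:43123001-43124000 the shares were 48.2% and 26.1%. The reverse was seen at chr2:162017001-162018000, with 45.6% for DPF2 and 64.6% for H3K14cr, and at chr14:36295001-36296000, with 34.3% and 53.3%. These are the extremes of 1563 differences whose quartiles were -2.84 and 4.66 percentage points.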
